A study of Mus musculus with 12 samples.

Results

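The genes described here are 10 enzymes and regulators of arginine and polyamine metabolism: Arg1, Nos2, Odc1, Azin1, Amd1, Srm, Sms, Sat1, Smox and Paox. They were taken from a table of 33539 mouse genes by their symbols, and all 10 were among the 18147 genes with enough counts to test. The set was chosen by measured values of these same libraries, the level of each gene in the 3 groups. Which comparison guided the choice is not recorded, so levels and changes of the members in all of them are a description and are not offered as tests. Levels are CPM, counts of a gene scaled to the total of its library with TMM factors.

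RNA of mouse skin was sequenced to ask how loss of Tcn2, which encodes the vitamin B12 carrier transcobalamin, bears on psoriasis-like inflammation. Such an inflammation follows when imiquimod (IMQ), which activates Toll-like receptors, is applied to mouse skin. There were 4 libraries of IMQ-induced skin from Tcn2-deficient mice (Tcn2-/- IMQ), 5 libraries of IMQ-induced skin (IMQ), which the study's design text calls wild type, and 3 libraries of wild-type control skin. No treatment is named for the controls. The deficiency is labelled as Tcn2-/- with no promoter, Cre or tissue restriction named, and strain, age, sex, dose and duration of IMQ are not given in the labels used here. No group of Tcn2-/- skin without IMQ was analysed, so an effect of the genotype itself and an effect on the response to IMQ cannot be told apart.

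Arginine stands at a branch point. Arginase splits it into urea and ornithine, while nitric oxide synthases oxidise it to nitric oxide and citrulline. Ornithine decarboxylase turns ornithine into putrescine, and the aminopropyl groups of decarboxylated S-adenosylmethionine extend putrescine to spermidine and spermine. Acetylation and oxidation run this path backwards and release hydrogen peroxide and aldehydes. Polyamines are needed by dividing cells, arginase 1 is known to be abundant in psoriatic epidermis, and arginase 1 and inducible nitric oxide synthase are also used as markers of differently activated mouse macrophages.

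Sequences before the transcription start are shown for the members whose IMQ and control libraries did not overlap and for which a RefSeq entry was at hand, since these are the genes on which the comparison below turns. RefSeq promoter entries of build GRCm38.p6 matched 6 of the 10 members, with 8 promoters in all. Arg1, Srm, Nos2 and Azin1 had no entry. The windows hold the 250 bases before the start, written 5′ to 3′ on the gene's strand. Of the Smox window (chr2:131491612-131491861, plus strand) 140 bases lie in annotated exons, and the 110 bases free of exons are printed, chr2:131491654-131491763, which end 99 bases before the start. The Sat1 window is chrX:155216450-155216699 on the minus strand. The Amd1 window is chr10:40302189-40302438 on the minus strand. The Sms window is chrX:157492288-157492537 on the minus strand, before the upstream start of 2 annotated ones. Capitals mark the GC box GGGCGG and the E-box CACGTG, the recognition sequence of Myc and Max, on either strand.
Smox: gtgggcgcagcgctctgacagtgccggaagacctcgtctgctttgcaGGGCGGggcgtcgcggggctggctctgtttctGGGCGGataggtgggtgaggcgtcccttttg
Sat1: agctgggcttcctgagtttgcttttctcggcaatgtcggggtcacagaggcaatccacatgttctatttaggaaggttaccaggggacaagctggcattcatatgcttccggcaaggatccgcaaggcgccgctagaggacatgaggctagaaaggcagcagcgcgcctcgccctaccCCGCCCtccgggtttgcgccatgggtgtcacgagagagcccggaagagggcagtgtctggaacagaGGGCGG
Amd1: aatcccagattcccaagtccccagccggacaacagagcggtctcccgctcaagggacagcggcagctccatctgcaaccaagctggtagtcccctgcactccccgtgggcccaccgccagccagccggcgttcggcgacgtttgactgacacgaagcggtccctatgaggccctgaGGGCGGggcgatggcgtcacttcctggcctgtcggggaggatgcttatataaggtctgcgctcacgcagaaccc
Sms: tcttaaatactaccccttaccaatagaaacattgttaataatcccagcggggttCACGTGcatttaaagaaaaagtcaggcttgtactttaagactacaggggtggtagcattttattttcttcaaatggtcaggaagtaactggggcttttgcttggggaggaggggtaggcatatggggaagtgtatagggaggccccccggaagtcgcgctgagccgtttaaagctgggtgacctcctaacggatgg

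The whole Smox window held 6 GC boxes, of which 2 lie in the printed stretch. The Sat1 window held 2 and the Amd1 window 1. The printed Sms window held no GC box. It held 1 E-box, with 190 bases between it and the transcription start, 1 CCAAT box and 2 overlapping matches to the NF-kB motif. The window of the downstream Sms start, which is not printed, held 4 GC boxes, 1 NF-kB match and no E-box. Among 32851 mouse promoter windows of the same length, 32.7% held a GC box, 6.02% an E-box, 33.8% CCAAT and 7.25% the NF-kB motif. TATAAA (12.4% of windows), the STAT motif TTCNNNGAA (7.02%) and the AP-1 motif TGANTCA (6.75%) were also searched on both strands and had no match in these 4 windows. These matches describe letters in a window and are not evidence of binding.

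Library totals ranged from 16182324 to 18503487 counts, and the members held 5 (Nos2) to 11214 (Sat1) counts in a library. Tcn2 stood at 5.59, 1.91, 5.44 and 4.14 CPM in the libraries labelled Tcn2-/- IMQ, against 67.0 to 141 CPM in the IMQ libraries and 19.9 to 85.9 CPM in the controls. Control replicate 1 and Tcn2-/- IMQ replicate 2 stood apart from all others along principal component 1 (34.1% of the variance). Control replicates 2 and 3 and IMQ replicate 1 had Xist reads and the other 9 libraries had Y-linked reads, so sex was mixed in the control and IMQ groups. Control replicate 1 was thus the only control with Y-linked reads. Changes against control in fits restricted to those libraries rest on that 1 control. Sample titles also say muscle, where the tissue label says skin. The summed level of the 14 skeletal muscle markers was 8567 to 35055 CPM in Tcn2-/- IMQ skin, 2987 to 7467 CPM in IMQ skin and 12701 to 13837 CPM in control skin. Their mean log2 CPM, the muscle marker score used below as a covariate, was 6.40 to 7.63 in IMQ libraries. It was 8.24 to 8.69 in controls and 7.75 to 9.81 in Tcn2-/- IMQ libraries, so IMQ skin overlapped neither other group. Fits with this score as a covariate therefore separate muscle content and group poorly. The 8 basal keratinocyte markers summed to at least 4523 CPM in every library. Nothing in the labels says that replicates are separate animals, so p-values cover the spread between these libraries only, which may be technical in part.

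IMQ skin was set against control skin to see what the psoriasis model changes. Smox, Arg1, Sat1 and Amd1 were higher in every IMQ library than in every control library, and Sms was lower in every IMQ library. In bulk skin a change in the number of cells that carry a transcript and a change in transcript per cell cannot be told apart. A gene was called at an adjusted p below 0.05 (edgeR's quasi-likelihood test, Benjamini-Hochberg adjustment over all genes tested). Smox was called and was the only member called, 1 of 10, where 1.23% of all tested genes were called (223 genes). The 4 members higher without overlap stand beside 6.79% of all tested genes, and the 1 member lower without overlap beside 7.4%. Since the members were chosen with these values known, nothing is read from these shares. The median log2 change of the 10 members was 0.53 and that of all tested genes was −0.00.

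**Figure D1:**
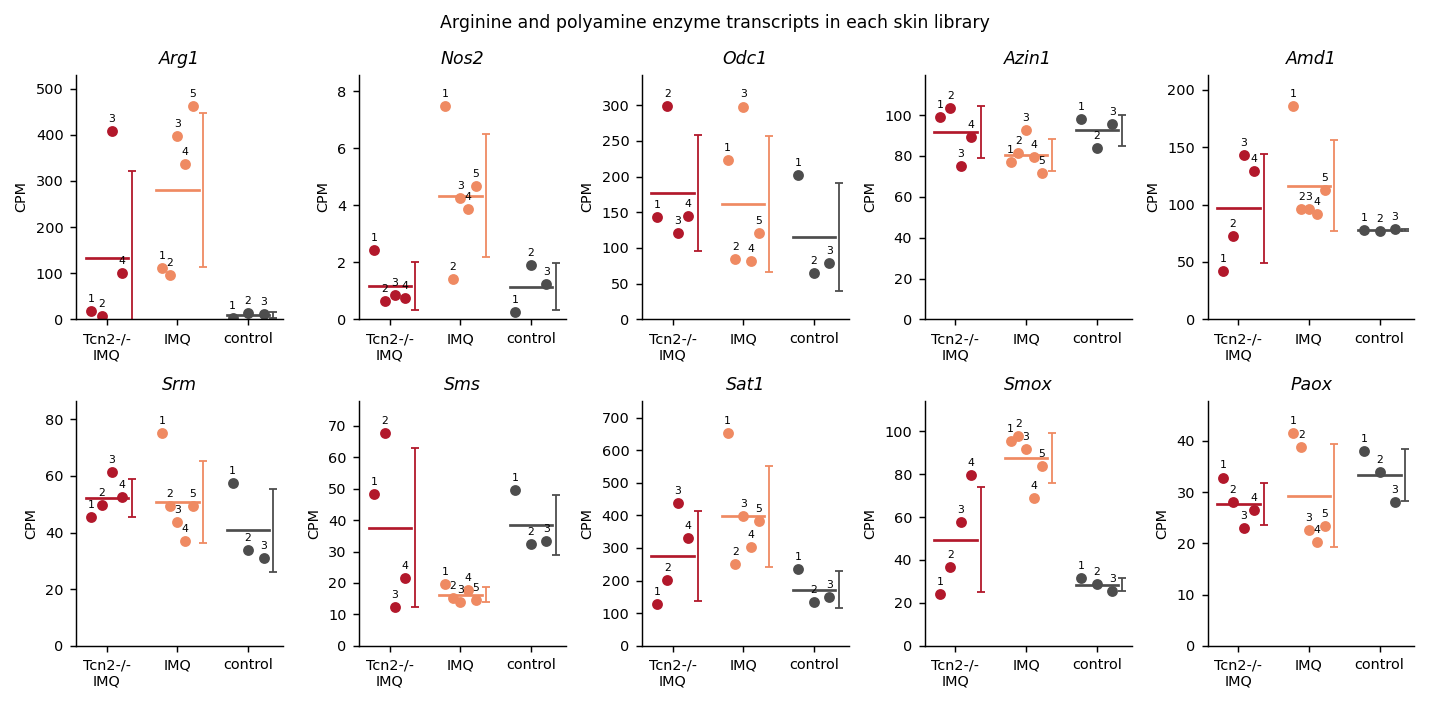
CPM (vertical axis of each panel, starting at 0) of the 10 genes in each library of Tcn2-/- IMQ, IMQ and control skin. Points are libraries with their replicate numbers, horizontal lines are group means and bars are 1 SD, with the part below 0 not drawn. Smox, Arg1, Sat1 and Amd1 lie higher in every IMQ library than in every control library, Sms lies lower, and the 4 Tcn2-/- IMQ libraries spread widely for Arg1, Sms and Smox.

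Arg1 (ENSMUSG00000019987, chromosome 10, 24791119 to 24803382, minus strand, GRCm39), arginase 1, had the widest range of the set on the log2 scale. It stood at 17.1, 6.97, 408 and 101 CPM in Tcn2-/- IMQ replicates 1 to 4, at 111, 95.8, 397, 338 and 461 CPM in IMQ replicates 1 to 5, and at 1.92, 13.2 and 12 CPM in control replicates 1 to 3. All IMQ libraries lay above all controls. In the Tcn2-/- IMQ group replicate 3 lay within the range of the upper 3 IMQ libraries, replicate 4 close to the lower 2, and replicates 1 and 2 near the controls. The log2 change was 4.96 (SE 1.36) for IMQ against control, a 31.0-fold difference. For Tcn2-/- IMQ against IMQ it was −1.07 (SE 0.995), and for Tcn2-/- IMQ against control 3.88 (SE 1.30). Without Tcn2-/- IMQ replicate 3 these last values were −2.75 and 2.20, and with the muscle marker score as a covariate the difference from IMQ skin was 0.002. The pooled SD of log2 CPM within groups was 1.82 for Arg1, the highest of the 10 genes, against 0.16 for Azin1, the lowest.

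Nos2 (ENSMUSG00000020826, chromosome 11, 78811613 to 78851080, plus strand), inducible nitric oxide synthase, competes with arginase for arginine and was the least abundant member. It stood at 2.44, 0.655, 0.866 and 0.758 CPM in Tcn2-/- IMQ skin, at 7.46, 1.41, 4.24, 3.88 and 4.68 CPM in IMQ skin and at 0.275, 1.91 and 1.25 CPM in control skin. These values rest on 11 to 41, 24 to 128 and 5 to 34 counts in a library of the 3 groups in that order. Replicate 2 of the IMQ group lay among the controls and below Tcn2-/- IMQ replicate 1, so IMQ skin overlapped both other groups, while the other 4 IMQ libraries lay above every library of those groups. The log2 change was −1.87 (SE 0.621) for Tcn2-/- IMQ against IMQ, 1.92 (SE 0.693) for IMQ against control and 0.04 (SE 0.691) for Tcn2-/- IMQ against control. Restricted to the 9 libraries with Y-linked reads (1 of them a control, replicate 1), the change for Tcn2-/- IMQ against control was 2.02 and for IMQ against control 3.62.

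Odc1 (ENSMUSG00000011179, chromosome 12, 17594795 to 17601506, plus strand), ornithine decarboxylase, makes putrescine and is the classic point of control of the pathway. It stood at 143, 298, 122 and 145 CPM in Tcn2-/- IMQ skin, at 223, 84.2, 298, 81.6 and 121 CPM in IMQ skin and at 202, 65.5 and 78.3 CPM in control skin. Each group held 1 or 2 libraries well above its others (Tcn2-/- IMQ replicate 2, IMQ replicates 1 and 3 and control replicate 1), and all groups overlapped. The log2 change was 0.49 (SE 0.522) for IMQ against control, 0.13 (SE 0.471) for Tcn2-/- IMQ against IMQ and 0.62 (SE 0.544) for Tcn2-/- IMQ against control. Without control replicate 1 and Tcn2-/- IMQ replicate 2 these changes were 1.17, −0.24 and 0.92. The summed level of 8 proliferation markers was highest in the same 2 libraries, at 1655 CPM in Tcn2-/- IMQ replicate 2 and 1118 CPM in control replicate 1, against 644 to 970.4 CPM in the other Tcn2-/- IMQ libraries, 541 to 937 CPM in IMQ skin and 457 and 496 CPM in the other controls. IMQ replicate 3, where Odc1 was as high as in Tcn2-/- IMQ replicate 2, had 543 CPM of these markers, near the lowest of IMQ skin. The summed level of 13 hair follicle and hair shaft markers was 1126 CPM in Tcn2-/- IMQ replicate 2 and 810 CPM in control replicate 1. It was 20.4 to 42.2 CPM in the other libraries of these groups. The highest sum, 9789 CPM, was in IMQ replicate 2, where Odc1 stood at 84.2 CPM. The part of both marker lists in the Odc1 values was not tested.

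Azin1 (ENSMUSG00000037458, chromosome 15, 38487671 to 38519510, minus strand), antizyme inhibitor 1, protects ornithine decarboxylase from antizyme-driven degradation and had the lowest spread within groups. It stood at 98.9, 103, 75.1 and 89.5 CPM in Tcn2-/- IMQ skin, at 77.0, 81.5, 92.8, 79.4 and 71.6 CPM in IMQ skin and at 98.0, 84.0 and 95.6 CPM in control skin. The groups overlapped in each comparison. The log2 changes ran from −0.20 (SE 0.146, IMQ against control) to 0.19 (SE 0.135, Tcn2-/- IMQ against IMQ).

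Amd1 (ENSMUSG00000075232, chromosome 10, 40163454 to 40178184, minus strand), S-adenosylmethionine decarboxylase, supplies the aminopropyl donor of both synthases. It stood at 42.1, 72.3, 143 and 129.6 CPM in Tcn2-/- IMQ skin, at 185, 96.2, 95.8, 91.9 and 113 CPM in IMQ skin and at 78.3, 77.0 and 78.9 CPM in control skin. The controls lay within 2 CPM of each other and below every IMQ library, whereas Tcn2-/- IMQ libraries lay on both sides of the controls. The log2 change was 0.58 (SE 0.366) for IMQ against control, −0.27 (SE 0.331) for Tcn2-/- IMQ against IMQ and 0.31 (SE 0.378) for Tcn2-/- IMQ against control. Amd2, a near-identical copy stood at 1.80 to 5.42 CPM over all libraries, and reads shared between the copies make the level of Amd1 uncertain.

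Srm (ENSMUSG00000006442, chromosome 4, 148675960 to 148679450, plus strand) and Sms (ENSMUSG00000071708, chromosome X, 156226851 to 156275283, minus strand) encode spermidine synthase and spermine synthase, which act in sequence. Srm stood at 45.4, 49.8, 61.5 and 52.5 CPM in Tcn2-/- IMQ skin, at 75.3, 49.3, 43.8, 37.1 and 49.2 CPM in IMQ skin and at 57.6, 33.8 and 31.1 CPM in control skin. Its groups overlapped in each comparison, with log2 changes of 0.04 (SE 0.235) for Tcn2-/- IMQ against IMQ, 0.32 (SE 0.259) for IMQ against control and 0.36 (SE 0.270) for Tcn2-/- IMQ against control. Sms stood at 48.3, 67.8, 12.4 and 21.5 CPM in Tcn2-/- IMQ skin, at 19.5, 15.3, 13.9, 17.7 and 14.4 CPM in IMQ skin and at 49.5, 32.5 and 33.4 CPM in control skin. The 5 IMQ libraries were close together and below every control. In Tcn2-/- IMQ skin replicate 1 was within the control range and replicate 2 above it, while replicate 3 was below every IMQ library and replicate 4 above every IMQ library but below every control. The log2 change of Sms was −1.25 (SE 0.422) for IMQ against control, 1.21 (SE 0.395) for Tcn2-/- IMQ against IMQ and −0.04 (SE 0.449) for Tcn2-/- IMQ against control. Without control replicate 1 and Tcn2-/- IMQ replicate 2 the change for Tcn2-/- IMQ against IMQ was 0.76, and with limma's voom and sample quality weights it was 0.34.

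Sat1 (ENSMUSG00000025283, chromosome X, 153996128 to 153999445, minus strand), spermidine/spermine acetyltransferase, starts polyamine breakdown and export. It stood at 127, 203, 439 and 329 CPM in Tcn2-/- IMQ skin, at 653, 249.7, 397, 303 and 383 CPM in IMQ skin and at 236, 133 and 148 CPM in control skin. Every IMQ library lay above every control, by a narrow margin between IMQ replicate 2 and control replicate 1. Tcn2-/- IMQ replicate 1 lay below all controls, replicate 2 among them, and replicates 3 and 4 within the IMQ range. The log2 change was 1.21 (SE 0.425) for IMQ against control, −0.53 (SE 0.376) for Tcn2-/- IMQ against IMQ and 0.67 (SE 0.430) for Tcn2-/- IMQ against control. The change for IMQ against control was 0.46 among libraries with Y-linked reads and 0.09 with the muscle marker score as a covariate.

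Smox (ENSMUSG00000027333, chromosome 2, 131333416 to 131367842, plus strand), spermine oxidase, turns spermine back into spermidine and gives off hydrogen peroxide. It stood at 24.1, 36.7, 57.7 and 79.5 CPM in Tcn2-/- IMQ skin, at 95.6, 97.6, 91.8, 68.7 and 84.0 CPM in IMQ skin and at 31.5, 28.7 and 25.3 CPM in control skin. The lowest IMQ library was above the highest control with a wide gap between them. The 4 Tcn2-/- IMQ libraries were spread from below the lowest control to within the IMQ range, and 3 of the 4 lay below every IMQ library. Smox averaged 49.5 ± 24.3 CPM in Tcn2-/- IMQ skin (SD, n = 4), 87.5 ± 11.8 CPM in IMQ skin (n = 5) and 28.5 ± 3.10 CPM in control skin (n = 3). The log2 change was 1.62 (SE 0.327) for IMQ against control, −0.82 (SE 0.286) for Tcn2-/- IMQ against IMQ and 0.80 (SE 0.327) for Tcn2-/- IMQ against control. Its call for IMQ against control was lost without any of the 3 controls or without IMQ replicate 1, 3, 4 or 5, where the change stayed between 1.54 and 1.70. With the muscle marker score as a covariate the change was 0.97.

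Paox (ENSMUSG00000025464, chromosome 7, 139695712 to 139717137, plus strand), polyamine oxidase of peroxisomes, acts on the acetylated polyamines that Sat1 makes. It stood at 32.9, 28.0, 22.9 and 26.6 CPM in Tcn2-/- IMQ skin, at 41.6, 38.9, 22.5, 20.3 and 23.3 CPM in IMQ skin and at 38.1, 34.0 and 28.1 CPM in control skin. The groups overlapped, and 2 IMQ libraries lay above and 3 below the control range. The log2 changes were −0.09 (SE 0.239) for Tcn2-/- IMQ against IMQ, −0.19 (SE 0.258) for IMQ against control and −0.27 (SE 0.271) for Tcn2-/- IMQ against control. Paox overlaps Echs1 on the opposite strand, and the counting strand is not given in the sources used here, so reads of these neighbours may be mixed.

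**Figure D2:**
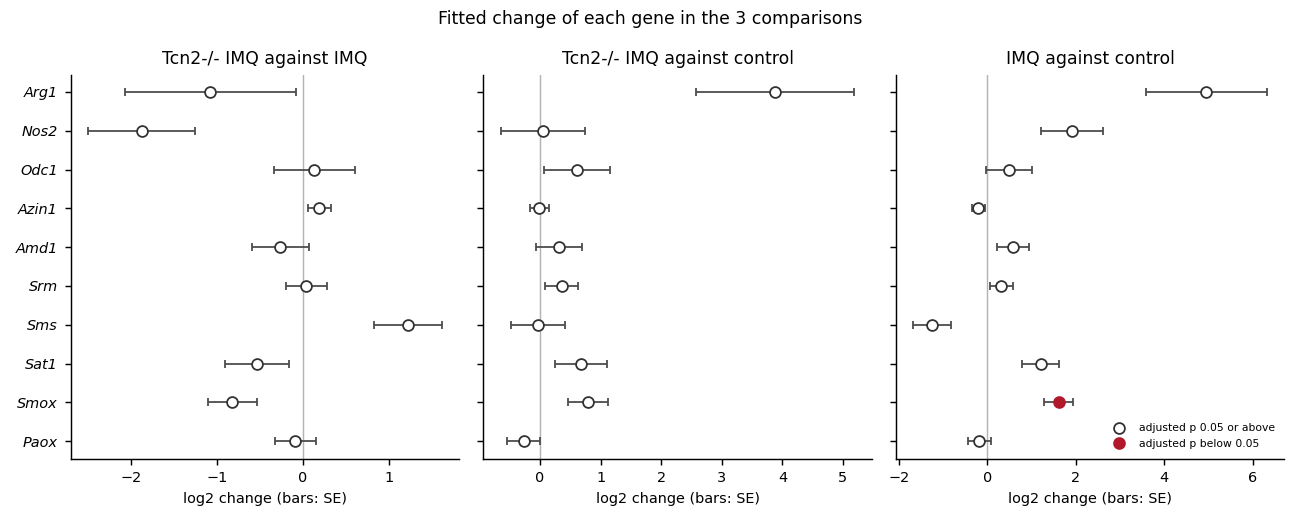
Fitted log2 change of each gene (horizontal axis, bars are 1 SE) for Tcn2-/- IMQ against IMQ, Tcn2-/- IMQ against control and IMQ against control, which share libraries. The filled point is the only call at an adjusted p below 0.05, Smox in IMQ against control at 1.62, and the horizontal scales differ between panels.

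Tcn2-/- IMQ skin was set against IMQ skin to see what differs in the model without Tcn2. None of the 10 members was called in edgeR's quasi-likelihood test, where 0.0276% of all tested genes were called (5 genes). DESeq2 called 0 members and 600 genes, and 3 members had an unadjusted p below 0.05 in edgeR, as did 2146 of all tested genes (11.8%). No member had Tcn2-/- IMQ and IMQ libraries without overlap, where 4.89% of tested genes did in either direction. Fitted changes were positive for 4 members and negative for 6, with a median log2 change of −0.18 over the members and 0.01 over all tested genes. For Tcn2-/- IMQ against control skin, again 0 of 10 members were called in edgeR beside 1.31% of tested genes (238 genes), with Arg1 called by DESeq2. In that comparison 2 members had an unadjusted p below 0.05, as did 2315 of all tested genes (12.8%). No member (0) had libraries without overlap, beside 10.6% of tested genes. The 3 comparisons share libraries, so a level that is high in the IMQ libraries moves both changes that involve them, in opposite directions.

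The Tcn2-/- IMQ group was not uniform, and its libraries split in the same way for several members. Replicates 1 and 2 had the 2 lowest levels of Smox, Arg1, Sat1, Amd1 and Srm and the 2 highest of Sms, Paox and Azin1, and replicates 3 and 4 had the reverse. The same split was present in many markers of other cell states. The summed level of the 10 measured stress keratinocyte markers, such as Krt6b and Krt16, was 1833 and 1979 CPM in replicates 1 and 2, and 20690 and 16350 CPM in replicates 3 and 4, against 9123 to 23355 CPM in IMQ skin and 867 to 1052 CPM in control skin. Krt17 held most of the control sum, at 703 to 941 CPM, and did not split in this way. The mean log2 CPM of the 10 genes was 6.49 and 6.21 in replicates 1 and 2, well above the 2.58 to 3.36 of control skin. It was 9.39 and 9.25 in replicates 3 and 4 and 8.86 to 10.4 in IMQ skin. The summed level of the 15 macrophage and monocyte markers was 1385, 346, 4247 and 3700 CPM in Tcn2-/- IMQ replicates 1 to 4, 2081 to 7474 CPM in IMQ skin and 128 to 4192 CPM in control skin. Their mean log2 CPM was 4.63, 2.68, 5.56 and 5.34 in the same replicates, all below the 6.42 to 7.63 of IMQ skin. In control skin it was 2.18 to 7.03. Cd14, Ly6c2, Ccr2, Retnla and Chil3 of this list did not split in this way, while its other genes did. For the 14 neutrophil markers, which share S100a8 and S100a9 with the keratinocyte list, it was 285 to 1324 CPM in Tcn2-/- IMQ skin, 2520 to 11737 CPM in IMQ skin and 22.9 to 111 CPM in control skin. S100a8 and S100a9 held most of this sum in every IMQ and Tcn2-/- IMQ library, at 5291 and 6005 CPM in IMQ replicate 1. The mean log2 CPM of the 14 genes was −0.19 to 1.81 in Tcn2-/- IMQ skin and −1.37 to 0.70 in control skin, which overlap. In IMQ skin it was 2.97 to 5.39. Ly6g, a defining neutrophil marker, was at 0 in all Tcn2-/- IMQ libraries, in IMQ replicates 3 and 4 and in all controls, and reached 4.6 CPM in IMQ replicate 1. Skeletal muscle markers summed to 35055 and 18625 CPM in Tcn2-/- IMQ replicates 1 and 2, and to 8567 and 15344 CPM in replicates 3 and 4. Their score, the mean log2 CPM, did not split in this way. It was 9.81, 8.48, 7.75 and 8.67 in replicates 1 to 4, so replicate 4 stood above replicate 2. The part of these cell types in the levels of the members was not tested. The muscle score, which differs between IMQ skin and both other groups, cannot serve as such a test. The groups of libraries named here were seen in the data and were not compared by any test.

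**Figure D3:**
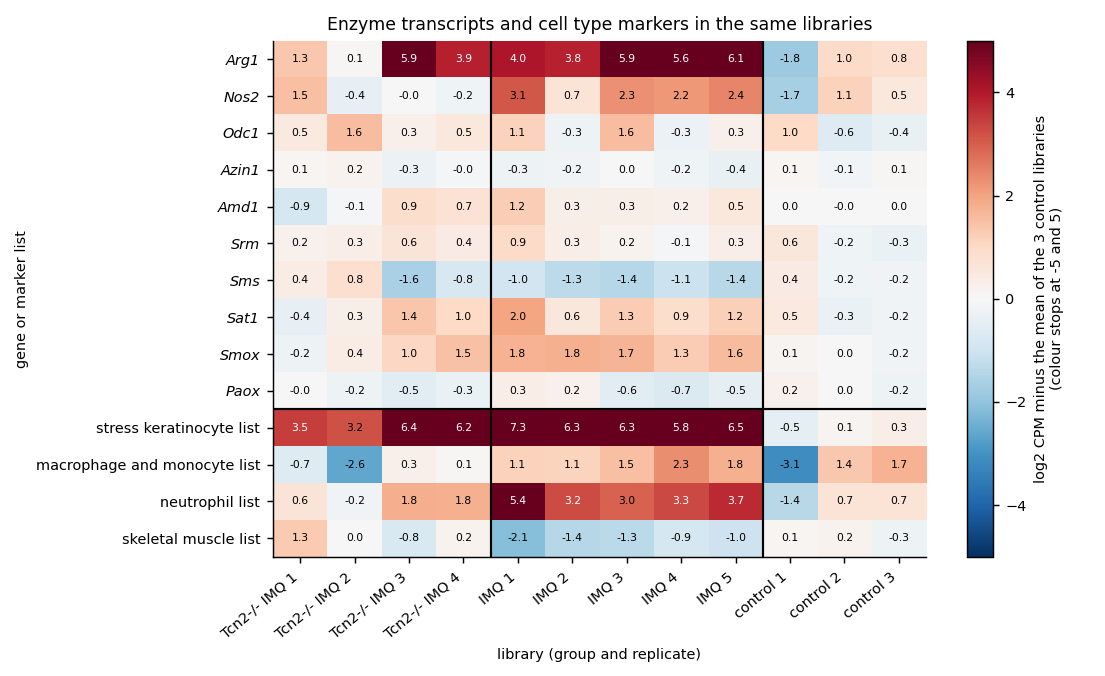
Level of each gene and of 4 marker lists in each library (columns), as log2 CPM (for a list, the mean log2 CPM of its genes) minus the mean of the 3 controls, printed in each cell, with the colour ending at −5 and 5. Tcn2-/- IMQ replicates 3 and 4 resemble the IMQ libraries for Arg1, Sat1, Sms and the stress keratinocyte list, and replicates 1 and 2 lie nearer to the controls for Arg1, Sat1 and Sms and between the groups for the stress keratinocyte list.

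Levels of different genes were compared per kilobase of exon. Sat1 was the most abundant member and Nos2 the least abundant in all 3 groups. Sat1 averaged 98.9 ± 49.6 CPM per kilobase in Tcn2-/- IMQ skin (SD, n = 4), 143 ± 56.0 in IMQ skin (n = 5) and 62.1 ± 20.1 in control skin (n = 3). Arg1 ranked 2nd by mean in Tcn2-/- IMQ skin (59.8 ± 84.4 CPM per kilobase) and in IMQ skin (126 ± 75.2), and 9th in control skin (4.06 ± 2.78). In IMQ skin Sat1 and Arg1 overlapped in their library values, as did Amd1 (32.9 ± 11.1) and Srm (31.9 ± 9.07) next to each other in the order. Sms ranked 8th in Tcn2-/- IMQ skin (6.24 ± 4.21), 9th in IMQ skin (2.69 ± 0.395) and 8th in control skin (6.40 ± 1.59), where it overlapped Paox (6.80 ± 1.03) and Smox (7.32 ± 0.795).

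Ratios of members within a library need no scaling between libraries, and these were chosen after the values had been seen. The ratio of Smox, which consumes spermine, to Sms, which makes it, was 0.771, 0.835, 7.17 and 5.71 per kilobase in Tcn2-/- IMQ replicates 1 to 4. It was 5.98 to 10.2 in IMQ skin with a median of 9.0, and 0.983 to 1.36 in control skin with a median of 1.17. IMQ and control libraries did not overlap in this ratio, and Tcn2-/- IMQ libraries lay either below the controls or near the lower end of IMQ skin. The ratio of Sat1 to Sms was 5.68, 6.48, 76.5 and 33.2 in Tcn2-/- IMQ replicates 1 to 4, 35.4 to 72.5 in IMQ skin and 8.86 to 10.3 in control skin, with Tcn2-/- IMQ replicates 1 and 2 below every control and replicate 3 above every IMQ library. The ratio of Smox to Paox, the 2 oxidases, was 0.925 to 3.76 in Tcn2-/- IMQ skin, 2.90 to 5.14 in IMQ skin and 1.04 to 1.14 in control skin. The ratio of Arg1 to Nos2 was 13.9, 21.1, 933 and 263 in Tcn2-/- IMQ replicates 1 to 4, 29.5 to 195 in IMQ skin and 13.7 to 19.0 in control skin, with few Nos2 counts behind it.

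Genes whose pattern over the 12 libraries was most like that of a member were ranked by Pearson's r of log2 CPM among 14289 genes, as a description without a p, since the points share groups, depth and cell content. Smox was most like Upp1, uridine phosphorylase (r = 0.95), Zdhhc13, a palmitoyltransferase (r = 0.95), the beta-defensin Defb3 and Hbegf, a growth factor of the EGF family, with a row of the repeated symbol U6 also among the first 5. Upp1 averaged 7.18 CPM in Tcn2-/- IMQ skin, 23.4 CPM in IMQ skin and 3.77 CPM in control skin. Arg1 was most like the epithelial proteases Tmprss11b (r = 0.98) and Tmprss11a, Nuak2, Gimap1 and Fam43a. Tmprss11b averaged 23.9 CPM in Tcn2-/- IMQ skin, 63.4 CPM in IMQ skin and 0.320 CPM in control skin. Odc1 was most like Ssr1 (r = 0.90), a subunit of the translocon-associated complex, and Rps2-ps8, Rpl23a-ps3 and Ndufb1 were also among its first 5. Nos2 was most like Cask (r = 0.91), Cd14, a receptor of monocytes and macrophages (r = 0.90), Plaur, the urokinase receptor, Fam217b and Pde1b. Cd14 averaged 17.3 CPM in Tcn2-/- IMQ skin, 90.9 CPM in IMQ skin and 22.8 CPM in control skin.

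The rest of the pathway was described over 9 lists with 98 genes, of which 96 were in the table and 87 were tested. In IMQ against control skin 1 of the 87 rose and 1 fell, and 18 had an unadjusted p below 0.05, where 15.6% of all tested genes did. Atp13a4, a P-type ATPase of the family that carries polyamines, rose. It stood at 13.8, 25.1, 15.1, 26.3 and 23.4 CPM in IMQ skin, against 2.58, 1.01 and 1.65 CPM in control skin, and the groups did not overlap. The change on the log2 scale was 3.56 with an SE of 0.604 (edgeR, adjusted p = 0.0223). Atp13a4 also rose in Tcn2-/- IMQ skin, at 12.1, 11.8, 30.5 and 56.8 CPM. Its change was 3.98 with an SE of 0.626 against control (edgeR, adjusted p = 0.0202) and 0.42 with an SE of 0.457 against IMQ (edgeR, adjusted p = 0.741). Its call against control was lost without control replicate 2 or 3 in both comparisons, without IMQ replicate 5 (3.51, adjusted p = 0.0536) for IMQ skin and without Tcn2-/- IMQ replicate 3 (3.94, adjusted p = 0.0584) for Tcn2-/- IMQ skin.

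Slc7a6, a transporter that exchanges arginine for neutral amino acids, fell in IMQ skin. It stood at 25.3, 27.5, 29.0, 24.3 and 28.2 CPM in IMQ skin, against 65.0, 76.4 and 57.4 CPM in control skin. The change on the log2 scale was −1.30 with an SE of 0.250 (edgeR, adjusted p = 0.0348). In Tcn2-/- IMQ skin it stood at 61.7, 45.0, 23.7 and 32.7 CPM, so that replicates 1, 2 and 4 were above every IMQ library and replicate 3 below. The change for Tcn2-/- IMQ against IMQ was 0.60 (SE 0.234, adjusted p = 0.35, edgeR). The call in IMQ skin was lost without any of the controls or without IMQ replicate 1, 3, 4 or 5, with changes of −1.39 to −1.19. With the muscle marker score as a covariate the change was −0.66 (edgeR, adjusted p = 0.814). Slc7a1, the main cationic amino acid transporter, averaged 59.8 ± 14.5 CPM in Tcn2-/- IMQ skin, 67.1 ± 11.2 CPM in IMQ skin and 32.5 ± 12.8 CPM in control skin (SD, n = 4, 5 and 3), with a log2 change of 1.05 for IMQ against control (SE 0.266, adjusted p = 0.0837, edgeR). Slc7a2 averaged 58.0 ± 16.6, 38.4 ± 13.7 and 41.0 ± 18.3 CPM in Tcn2-/- IMQ, IMQ and control skin, with a change of 0.60 for Tcn2-/- IMQ against IMQ (SE 0.335, adjusted p = 0.508, edgeR).

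Among enzymes that make or use arginine, 0 of 15 tested genes were called in edgeR in any comparison. Arg2, the mitochondrial arginase, averaged 8.16 ± 7.07, 7.87 ± 2.46 and 4.07 ± 3.24 CPM in Tcn2-/- IMQ, IMQ and control skin. The enzymes that rebuild arginine from citrulline were Ass1, at 30.3 ± 11.6, 44.1 ± 18.9 and 23.6 ± 11.5 CPM, and Asl, at 14.2 ± 1.56, 20.01 ± 4.75 and 15.0 ± 1.37 CPM in the same order of groups. Ddah1, which clears methylated arginines that inhibit nitric oxide synthases, averaged 37.4 ± 15.5, 25.7 ± 13.0 and 10.4 ± 4.48 CPM, with a change of 1.84 for Tcn2-/- IMQ against control (SE 0.513, adjusted p = 0.111, edgeR). Padi1, a peptidylarginine deiminase of epidermis, averaged 3.97 ± 0.694, 10.6 ± 15.0 and 1.16 ± 1.62 CPM.

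Downstream of ornithine, Oat, ornithine aminotransferase, averaged 205 ± 24.8 CPM in Tcn2-/- IMQ skin, 136 ± 29.9 CPM in IMQ skin and 149 ± 12.5 CPM in control skin. Its log2 change for Tcn2-/- IMQ against IMQ was 0.59 (SE 0.173, adjusted p = 0.212, edgeR). Aldh18a1, which makes the precursor of proline and ornithine from glutamate, averaged 43.8 ± 7.40, 38.9 ± 6.60 and 26.2 ± 6.19 CPM in Tcn2-/- IMQ, IMQ and control skin. The antizymes, which mark ornithine decarboxylase for degradation, were Oaz1, at 333 ± 80.7, 295 ± 24.5 and 319 ± 39.6 CPM, and Oaz2, at 62.1 ± 26.0, 54.4 ± 12.5 and 60.1 ± 13.2 CPM. Eif5a encodes the protein on which hypusine is formed with spermidine. It averaged 651 ± 110, 601 ± 89.3 and 427 ± 161 CPM, and its relative Eif5a2 11.1 ± 2.13, 15.3 ± 3.07 and 14.4 ± 6.34 CPM. In the salvage of methylthioadenosine, the by-product of both synthases, Mtap averaged 30.6 ± 6.76, 30.6 ± 1.49 and 22.8 ± 5.92 CPM and Adi1 36.5 ± 16.1, 29.4 ± 3.42 and 49.8 ± 5.76 CPM. None of these genes was called in edgeR in any comparison.

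Gch1, which starts the synthesis of the nitric oxide synthase cofactor tetrahydrobiopterin, averaged 13.5 ± 8.14 CPM in Tcn2-/- IMQ skin, 32.7 ± 18.0 CPM in IMQ skin and 17.8 ± 5.54 CPM in control skin, with a change of −1.27 for Tcn2-/- IMQ against IMQ (SE 0.479, adjusted p = 0.336, edgeR). Qdpr, which recycles the cofactor, averaged 27.7 ± 11.1, 19.8 ± 3.36 and 32.7 ± 5.54 CPM in the same order. Myc, a transcription factor known to drive Odc1, averaged 56.4 ± 12, 55.0 ± 17.9 and 63.0 ± 8.95 CPM, its partner Max 78.1 ± 7.44, 90.8 ± 6.72 and 74.4 ± 6.75 CPM, and Mxd3 7.71 ± 4.43, 3.92 ± 0.516 and 5.17 ± 5.05 CPM. Gpx1, a peroxide-reducing enzyme, averaged 379 ± 132, 556 ± 89.7 and 255 ± 38.7 CPM, with a change of 1.12 for IMQ against control (SE 0.278, adjusted p = 0.0772, edgeR). Aldh3a1, an aldehyde dehydrogenase, averaged 57.6 ± 41.8, 18.6 ± 16.3 and 135 ± 25.9 CPM, with a change of −2.86 for IMQ against control (SE 0.722, adjusted p = 0.0826, edgeR). For Tcn2-/- IMQ against IMQ, 0 of the 87 tested pathway genes were called in edgeR, 7 had an unadjusted p below 0.05 (11.8% of all tested genes did) and DESeq2 called 1, Oat. For Tcn2-/- IMQ against control 1 rose, 0 fell and 14 had an unadjusted p below 0.05 (12.8% of all tested genes did). The median log2 change of the 87 genes was 0.06 for Tcn2-/- IMQ against IMQ, 0.09 for IMQ against control and 0.10 for Tcn2-/- IMQ against control, beside 0.01, −0.00 and 0.01 for all tested genes.

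**Figure D4:**
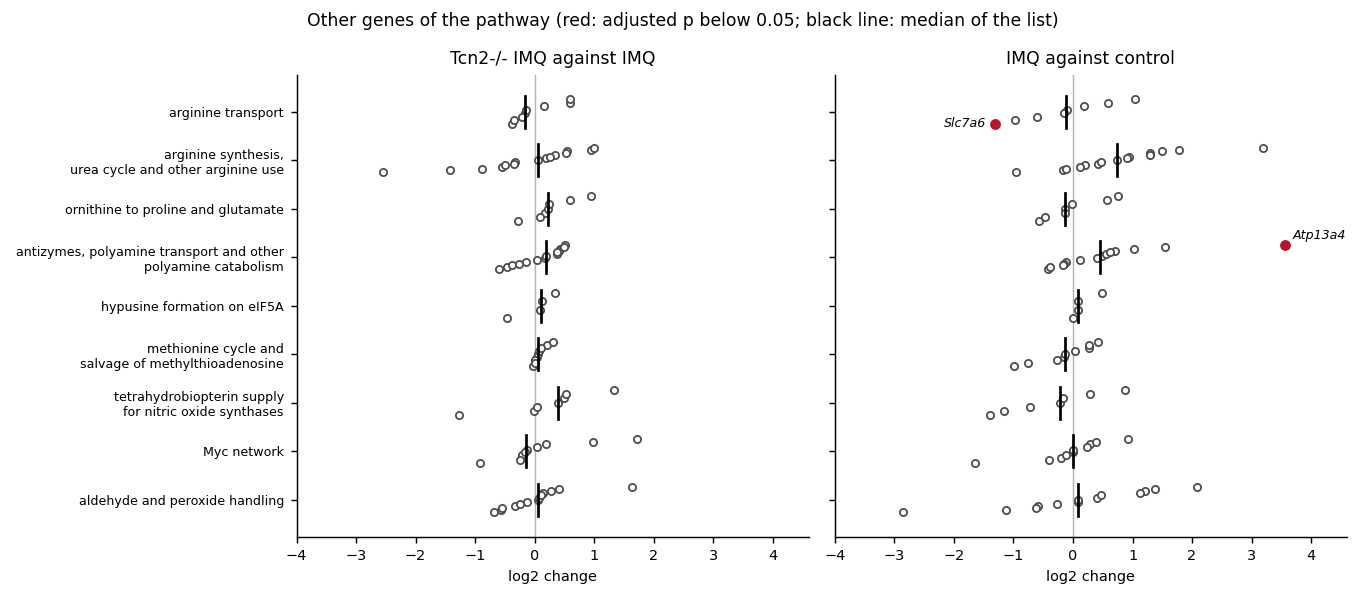
Log2 change (horizontal axis) of the 87 tested genes of the 9 pathway lists (rows) for Tcn2-/- IMQ against IMQ and IMQ against control. Each point is a gene, black lines are list medians, and the filled points are Slc7a6 at −1.30 and Atp13a4 at 3.56, called for IMQ against control at an adjusted p below 0.05.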

How the data were processed

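RNA-seq of 12 mouse skin libraries was analysed from the deposited counts per gene, whole numbers that the authors had not normalized. Per the labels' protocols, polyadenylated RNA was captured with oligo(dT), fragmented, primed at random and amplified by PCR, and no molecular identifiers are mentioned. The build was GRCm39, per the submitters' processing notes. The sources used here name no aligner, counting program, annotation release or strand setting, which leaves overlapping genes and near-identical copies uncertain.

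Groups were taken from the sample titles, with their replicate numbers. In R 4.3.3, edgeR 4.0.16 (filterByExpr, TMM factors, glmQLFit, glmQLFTest, 2-sided) was run on the 12 libraries together with 1 mean per group, and p-values were adjusted by Benjamini-Hochberg over 18147 genes. The common biological coefficient of variation came to 0.463. Log2 CPM had a prior count of 2. Exon lengths came from GENCODE M21 (GRCm38) and promoters from RefSeq (GRCm38.p6). Members, lists, tests and other settings were chosen with earlier results of these data known. The pathway genes named are those called in a list (where a list had none, the 2 of smallest p) and 10 set by name. Genes most like a member were sought among tested genes of at least 1 CPM on average. Of the 5 found for Odc1, 1 is not reported here. Other settings were upper-quartile and RLE factors, DESeq2 1.42.0, 2 other filters on low counts, only the groups compared, limma 3.58.1 with voom and quality weights, a replicate block, muscle score or sex as a covariate, only Y-positive libraries, and leaving libraries out. Counts simulated with known changes were also put through the fits. They held no differences in cell content between libraries, and the outcome is not given here.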

Additional observations from a re-analysis of the deposited data

Results flagged for a closer look

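Among 20 groups of a member's values checked for a library far from the others, 3 held one, and chance flags about 1 group in 20. Odc1 stood at 298 CPM in Tcn2-/- IMQ replicate 2, where the next highest library of that group was at 145 CPM and the gap was 0.868 of the range. Nos2 stood at 2.44 CPM in Tcn2-/- IMQ replicate 1, with the next at 0.866 CPM and a gap of 0.882 of the range. Amd1 stood at 185 CPM in IMQ replicate 1, with the next at 113 CPM and a gap of 0.778 of the range.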

How the results depend on the processing

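Counts of calls depended on the setting. For IMQ against control, where 1 member was called, DESeq2 called 2 (Arg1 and Smox), a fit of only the groups compared 3 and limma's voom with quality weights 5. No member was called (0) with the replicate block, with the muscle score or sex as a covariate, in libraries with Y-linked reads only, or without control replicate 1 and Tcn2-/- IMQ replicate 2 together. Leaving out each library in turn gave 0 to 1. The change of Smox kept its sign in all 24 settings (0.97 to 1.70) and was called in 12. Its adjusted p ran from 0.000123 (DESeq2) to 0.813 (edgeR with the muscle score as a covariate). For the 2 called pathway genes of this comparison the count was 7 with DESeq2, 24 with voom, 1 with sex as a covariate, and 0 with the replicate block, the muscle score or Y-linked libraries only. Leaving out each library gave 0 (without control replicate 2 or 3, or IMQ replicate 5) to 4 (without IMQ replicate 2). For Tcn2-/- IMQ against IMQ no setting called a member, and only DESeq2 called a pathway gene, 1. For Tcn2-/- IMQ against control, DESeq2 called 1 member and voom 4, other settings none. The 1 called pathway gene of that comparison became 6 with DESeq2, 19 with voom, 3 without the 2 libraries named above, and 0 in a fit of only the groups compared, with the replicate block, with sex as a covariate or with Y-linked libraries only. Leaving out each library gave 0 (without control replicate 2 or 3, or Tcn2-/- IMQ replicate 3) to 3 (without control replicate 1). The cause of these shifts was not tested.

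Over all genes, the counts for IMQ against control, Tcn2-/- IMQ against IMQ and Tcn2-/- IMQ against control were 223, 5 and 238. They became 1126, 600 and 1050 with DESeq2, 3028, 28 and 2948 with voom, 541, 42 and 102 in fits of only the groups compared, and 46, 0 and 20 with the replicate block. With the muscle score they were 5, 0 and 239, with sex as a covariate 143, 6 and 27, in Y-linked libraries only 0, 30 and 0, and with no filter 224, 17 and 280. Without control replicate 1 and Tcn2-/- IMQ replicate 2 they were 213, 51 and 396, and leaving out each library gave 8 to 397, 1 to 95 and 3 to 428. Deviations from the group means of same-numbered libraries of different groups had correlations of −0.531 to 0.419 over 10 pairs. Whether the replicate numbers pair the libraries is not settled by these values. With the muscle covariate the change for IMQ against control turned negative for Amd1 (−0.52) and Srm (−0.15), with no call. In Y-linked libraries, where control replicate 1 was the only control, it was negative for Odc1 (−0.50) and Srm (−0.40). The muscle covariate gave, for Tcn2-/- IMQ against IMQ, 0.59 for Sat1, 0.85 for Amd1, 0.01 for Paox, 0.002 for Arg1 and −0.15 for Smox, against −0.53, −0.27, −0.09, −1.07 and −0.82 without it, again with no call. Depth limits Nos2 most, at 5 to 128 counts in a library.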
